A study of Homo sapiens with 12 samples.

Results

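The difference between the BMP response of MIB1 KO cells and that of MIB1 WT cells (the interaction of MIB1 loss with BMP) was measured gene by gene in RNA-seq counts. It was computed as the log2 fold change of BMP-on over BMP-off in KO cells minus the same log2 fold change in WT cells, so that a gene induced more strongly after MIB1 loss has a positive interaction and a gene lowered more strongly has a negative one. All 12 of the 12 libraries of the series entered it, in 4 groups of 3, chosen by the Dox and LDN treatment in the sample titles.

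The cells were NCIH838 MIB1-iKO cells, a human lung cancer line with a piggyBac insert that carries a guide RNA against *MIB1*, a puromycin resistance gene and Cas9 under a Dox-controlled promoter, grown from single-cell clones. In every group the cells were kept for 3 days in 50 nmol/L LDN, a small-molecule inhibitor of the kinases of BMP type I receptors, and then given 10 ng/mL BMP4 for 24 hours. MIB1 WT cells had no Dox and MIB1 KO cells had 0.5 μg/mL Dox during the 3 days. BMP-off cells received BMP4 together with LDN, and BMP-on cells received BMP4 with DMSO, so the groups were WT BMP-off, WT BMP-on, KO BMP-off and KO BMP-on. Since every KO library and no WT library had Dox, effects of Dox, of Cas9 cutting and of MIB1 loss cannot be told apart. Which clone and guide the RNA came from, and whether replicates were separate cultures, is not given in the sources used here, so that p-values measure the spread between these samples, which may be technical.

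BMP ligands bind pairs of type I and type II receptor kinases, which phosphorylate SMAD1, SMAD5 and SMAD9. These enter the nucleus with SMAD4 and switch on a shared set of early targets, among them the ID proteins, which block helix-loop-helix transcription factors, and inhibitors of the pathway itself such as SMAD6, SMAD7, BAMBI and Noggin. BMP signaling slows the division of many epithelial cells. MIB1 is a ubiquitin ligase best known for its part in the endocytosis of Notch ligands.

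Total counts per library lay between 19124010 and 29498000, and 17188 genes passed the filter on low counts. *MIB1* transcript (ENSG00000101752, chromosome 18, 21704957 to 21870953, plus strand, GRCh38) stood at 176, 144 and 154 CPM (the count over the library's total count, times 1e+06, with totals scaled by edgeR's TMM factors) in WT BMP-off, 158, 175 and 153 in WT BMP-on, 34.2, 34.4 and 32.5 in KO BMP-off and 33.0, 31.0 and 32.0 in KO BMP-on, so the Dox libraries lay below all others. For the marker lists that follow, CPM were taken over the total count of all gene IDs, without TMM factors. Of 10 lung epithelial markers, 5 (*EPCAM*, *CDH1*, *KRT7*, *KRT8*, *KRT18*) had a mean of at least 1 CPM, and *NKX2-1*, *NAPSA*, *SFTPB*, *SFTPC* and *KRT19* did not. The summed level of the epithelial list ranged from 353 to 363 CPM in WT BMP-off, 396 to 426 in WT BMP-on, 315 to 369 in KO BMP-off and 413 to 481 in KO BMP-on, and that of a fibroblast list (*COL1A1*, *LUM*, *PDGFRB* and *THY1* of 8 genes at 1 CPM or more) from 51.9 to 62.4, 68.7 to 71.2, 46.6 to 59.9 and 71.4 to 82.1 CPM. Of 8 immune markers 1 (*CD14*) and of 6 endothelial markers 0 had a mean of at least 1 CPM. The part of these marker genes in the results below was not tested, and in bulk RNA fewer cells of a type and less RNA per cell cannot be told apart.

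Genes of 2 kinds had a BMP response that differed in size after MIB1 loss at an adjusted p of at most 0.05 (edgeR, Benjamini-Hochberg over all genes tested). A group of 7 BMP-induced genes was induced between 1.68- and 1.95-fold further in KO cells, and a group of 9 genes, several with known roles in cell division, fell with BMP in KO cells more than in WT cells. Of 17188 genes, 7 (0.0407%) had a higher and 9 (0.0524%) a lower interaction, and 0 of these also reached a log2 interaction of 1 in size. At an unadjusted p under 0.05 the numbers were 801 higher (4.66%) and 1018 lower (5.92%).

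The 7 genes with a larger BMP response in KO cells were *SOCS2*, *CYP24A1*, *BAMBI*, *CDKN1A*, *PPP1R3C*, *HEY1* and *HTRA1*. All 7 rose with BMP in KO cells at the adjusted threshold, and 6 did so in WT cells. The exception, *PPP1R3C*, was higher with BMP in WT cells without overlap, at an adjusted p just past the threshold (0.051, edgeR). The 7 were chosen by a positive interaction, which favours a high response in KO cells. The share of all genes past the threshold for either response is not given here, so these counts only describe the 7. For the 3 of them with an entry in the RefSeq promoter table (GRCh38.p14) that holds a GC-rich SMAD motif (GGCGCC, the same on both strands), the 250 bases before the start site are shown with the motif in capitals, together with those of *SMAD9*, a BMP-induced gene whose response was equal in WT and KO cells within the limits given below, and of *TOP2A*, one of the 9 genes with a lower interaction, where CCAAT or its reverse ATTGG is in capitals. The windows are chr10:28677271-28677520 (plus strand, *BAMBI*), chr10:91633072-91633321 (minus, *PPP1R3C*), chr10:122461303-122461552 (plus, *HTRA1*), chr13:36920239-36920488 (minus, *SMAD9*) and chr17:40417897-40418146 (minus, *TOP2A*), each printed 5′ to 3′. The RefSeq start of *HTRA1* lies inside the gene as annotated in the table used for gene positions (chromosome 10, 122458551 to 122514907, plus strand).
BAMBI: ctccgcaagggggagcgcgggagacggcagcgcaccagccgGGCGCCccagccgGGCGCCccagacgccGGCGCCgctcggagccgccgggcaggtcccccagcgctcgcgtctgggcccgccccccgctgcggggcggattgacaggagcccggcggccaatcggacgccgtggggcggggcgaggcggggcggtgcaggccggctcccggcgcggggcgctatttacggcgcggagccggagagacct
PPP1R3C: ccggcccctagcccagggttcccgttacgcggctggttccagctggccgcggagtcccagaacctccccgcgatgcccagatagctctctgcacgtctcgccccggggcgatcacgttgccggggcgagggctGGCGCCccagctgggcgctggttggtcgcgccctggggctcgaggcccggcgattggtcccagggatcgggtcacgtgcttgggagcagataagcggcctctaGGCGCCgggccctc
HTRA1: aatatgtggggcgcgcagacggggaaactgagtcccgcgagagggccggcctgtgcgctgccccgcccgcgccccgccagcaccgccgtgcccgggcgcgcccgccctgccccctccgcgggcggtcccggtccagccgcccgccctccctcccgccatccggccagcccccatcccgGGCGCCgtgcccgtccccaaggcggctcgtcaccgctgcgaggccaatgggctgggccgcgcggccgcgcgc
SMAD9: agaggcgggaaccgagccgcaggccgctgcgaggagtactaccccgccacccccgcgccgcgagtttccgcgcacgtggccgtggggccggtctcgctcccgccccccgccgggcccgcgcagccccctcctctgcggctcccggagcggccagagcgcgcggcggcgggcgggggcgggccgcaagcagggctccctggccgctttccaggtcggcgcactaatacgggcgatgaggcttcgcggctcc
TOP2A: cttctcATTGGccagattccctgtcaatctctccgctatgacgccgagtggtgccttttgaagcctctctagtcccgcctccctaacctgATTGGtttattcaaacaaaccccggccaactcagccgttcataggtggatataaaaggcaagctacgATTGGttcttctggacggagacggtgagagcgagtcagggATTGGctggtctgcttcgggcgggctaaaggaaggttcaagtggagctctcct

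The *BAMBI* window held 3 copies of GGCGCC, that of *PPP1R3C* 2, that of *HTRA1* 1 and that of *SMAD9* 0. Of the 35116 windows of the same length in the table, 16.4% held at least 1 copy. The table had an entry for 4 of the 7 genes with a higher interaction, and the window of *CDKN1A*, the remaining one, had no copy. Among the genes with a lower interaction, all 9 had an entry, of which 2 held GGCGCC. Of 8 genes with an equal response 7 had an entry, and 2 of these, *ADAMTSL3* and *MRAS*, held it in at least 1 window. These 7 genes had 11 windows, while the genes with a higher or lower interaction had 1 each. Some equal genes therefore had more than 1 chance to match. The *TOP2A* window held 4 copies of CCAAT or ATTGG, and 4 of the 9 windows, 3 of the 4 windows of the higher genes and 32.0% of all windows held at least 1. TTTGAA or TTCAAA, the letters of the cell cycle homology region, occurred in 4 of the 9 and 0 of the 4 windows (13.3% of all), and TTCCCGC or GCGGGAA, an E2F-like sequence, in 3 of the 9 and 0 of the 4 (5.52% of all). Such matches describe the letters of these windows and do not show binding.

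*SOCS2* (ENSG00000120833), a feedback inhibitor of cytokine receptor and growth hormone signaling, had the lowest p. Its level was 20.6, 20.5 and 19.1 CPM in WT BMP-off, 40.0, 38.3 and 38.6 in WT BMP-on, 20.8, 20.3 and 20.7 in KO BMP-off and 71.5, 74.1 and 74.9 in KO BMP-on. The BMP-off groups overlapped and the BMP-on groups did not, with every KO BMP-on library above every WT BMP-on library. BMP raised it 1.94-fold in WT and 3.57-fold in KO cells, an interaction of 0.88 log2 (standard error 0.077, edgeR adjusted p = 7.2e-05). It kept an adjusted p of at most 0.05 with each of the 12 libraries left out, at 0.85 to 0.91 log2, and under all 11 other alternatives. *SOCS2* overlaps *SOCS2-AS1*, a noncoding RNA of the other strand, and whether the counting used strand is not given in the sources used here, so their reads may be shared. *SOCS2-AS1* followed the same order at 0.869 to 1.22, 1.77 to 2.26, 0.925 to 1.37 and 4.35 to 5.28 CPM, with an interaction of 1.11 log2 that missed the threshold (edgeR adjusted p = 0.11).

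*CYP24A1* (ENSG00000019186) encodes the hydroxylase that inactivates vitamin D. It had 63.1, 61.6 and 58.6 CPM in WT BMP-off, 163, 157 and 145 in WT BMP-on, 62.3, 64.5 and 61.1 in KO BMP-off and 273, 277 and 260.1 in KO BMP-on. BMP-off levels overlapped between WT and KO cells and the lowest KO BMP-on library lay far above the highest WT BMP-on library. The induction was 2.54-fold in WT and 4.31-fold in KO cells (interaction 0.77 log2, standard error 0.073, edgeR adjusted p = 0.00013), and it passed with each library left out. In the list of vitamin D and retinoid genes, 18 of 23 were tested, and *CYP24A1* was the 1 called. *DHRS3*, a retinal reductase, had log2 responses of 0.51 and 0.97 (interaction 0.46, unadjusted p = 0.0041).

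*BAMBI* (ENSG00000095739), a pseudoreceptor that lacks a kinase domain and dampens TGF-β family signaling, showed the largest interaction of the 7. The libraries gave 14.6, 13.8 and 13.01 CPM in WT BMP-off, 40.3, 32.2 and 33.5 in WT BMP-on, 15.9, 16.7 and 16.1 in KO BMP-off and 75.1, 85.8 and 81.3 in KO BMP-on. KO libraries lay above WT libraries in both BMP states, by little with BMP-off and by more than the whole WT range with BMP-on. Its fold induction was 2.55 in WT and 4.97 in KO cells (interaction 0.96 log2, standard error 0.12, edgeR adjusted p = 0.00263).

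*HEY1* (ENSG00000164683), a helix-loop-helix repressor known as a target of both Notch and BMP signaling, rose from 4.995, 4.78 and 5.64 CPM to 15.1, 13.3 and 13.003 in WT cells and from 6.49, 6.63 and 6.86 to 31.1, 33.7 and 34.2 in KO cells. As for *BAMBI*, groups did not overlap in either BMP state. The interaction was 0.88 log2 (standard error 0.13, edgeR adjusted p = 0.0112), between 0.81 and 0.94 with each library left out, and it was called in 6 of these 12 fits. Of the 22 tested genes of the Notch list, *HEY1* was the 1 called, and 14 (63.6%) had a positive interaction, against 52.4% of all genes tested. With the GC correction described below 11 of the 22 were positive, against 48.7% of all genes. *HES1*, a close relative of *HEY1*, had log2 responses of 0.87 and 1.18 (interaction 0.31, unadjusted p = 0.015), and *JAG1*, a Notch ligand, 0.10 and 0.37 (0.28, unadjusted p = 0.0027).

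*CDKN1A* (ENSG00000124762) encodes p21, an inhibitor of cyclin-dependent kinases. It had 38.4, 43.3 and 43.2 CPM in WT BMP-off, 105, 88.6 and 90.1 in WT BMP-on, 46.4, 42.3 and 46.9 in KO BMP-off and 169, 186 and 164 in KO BMP-on, so that KO and WT cells overlapped with BMP-off and were apart with BMP-on. The interaction was 0.75 log2 (standard error 0.1, edgeR adjusted p = 0.00843). Of the other CDK inhibitors tested, *CDKN2C* had log2 responses of 0.44 and 0.69 (0.25, unadjusted p = 0.0064), and *CDKN1B* had -0.06 and -0.11 (interaction -0.05, unadjusted p = 0.52). In the p53 target list, which holds *CDKN1A* too, 11 of 26 tested genes had a positive interaction, against 52.4% of all genes tested. The median was -0.05 against 0.01 for all genes tested.

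*HTRA1* (ENSG00000166033), a secreted serine protease, had 9.02, 10.96 and 11.1 CPM in WT BMP-off, 22.2, 19.7 and 19.8 in WT BMP-on, 8.16, 8.64 and 8.20 in KO BMP-off and 28.8, 28.2 and 29.4 in KO BMP-on. KO libraries lay below WT libraries with BMP-off and above them with BMP-on, and the interaction was 0.80 log2 (standard error 0.12, edgeR adjusted p = 0.0178). It was called in 4 of the 12 fits with a library left out. *PPP1R3C* (ENSG00000119938), a subunit that targets protein phosphatase 1 to glycogen, was the gene of the 7 with the smallest response in WT cells, at 14.2, 14.5 and 13.7 CPM without and 18.2, 15.9 and 17.7 with BMP. In KO cells it went from 14.4, 14.3 and 13.2 to 27.1, 30.9 and 29.8 CPM. Its log2 response was 0.29 in WT cells (edgeR adjusted p = 0.051) and 1.07 in KO cells (interaction 0.78, standard error 0.11, edgeR adjusted p = 0.00947). The call was lost in 2 fits, at 0.71 log2 (edgeR adjusted p = 0.0502) when WT BMP-on replicate 2 was left out and at 0.75 log2 (edgeR adjusted p = 0.0542) when KO BMP-on replicate 3 was.

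**Figure D1:**
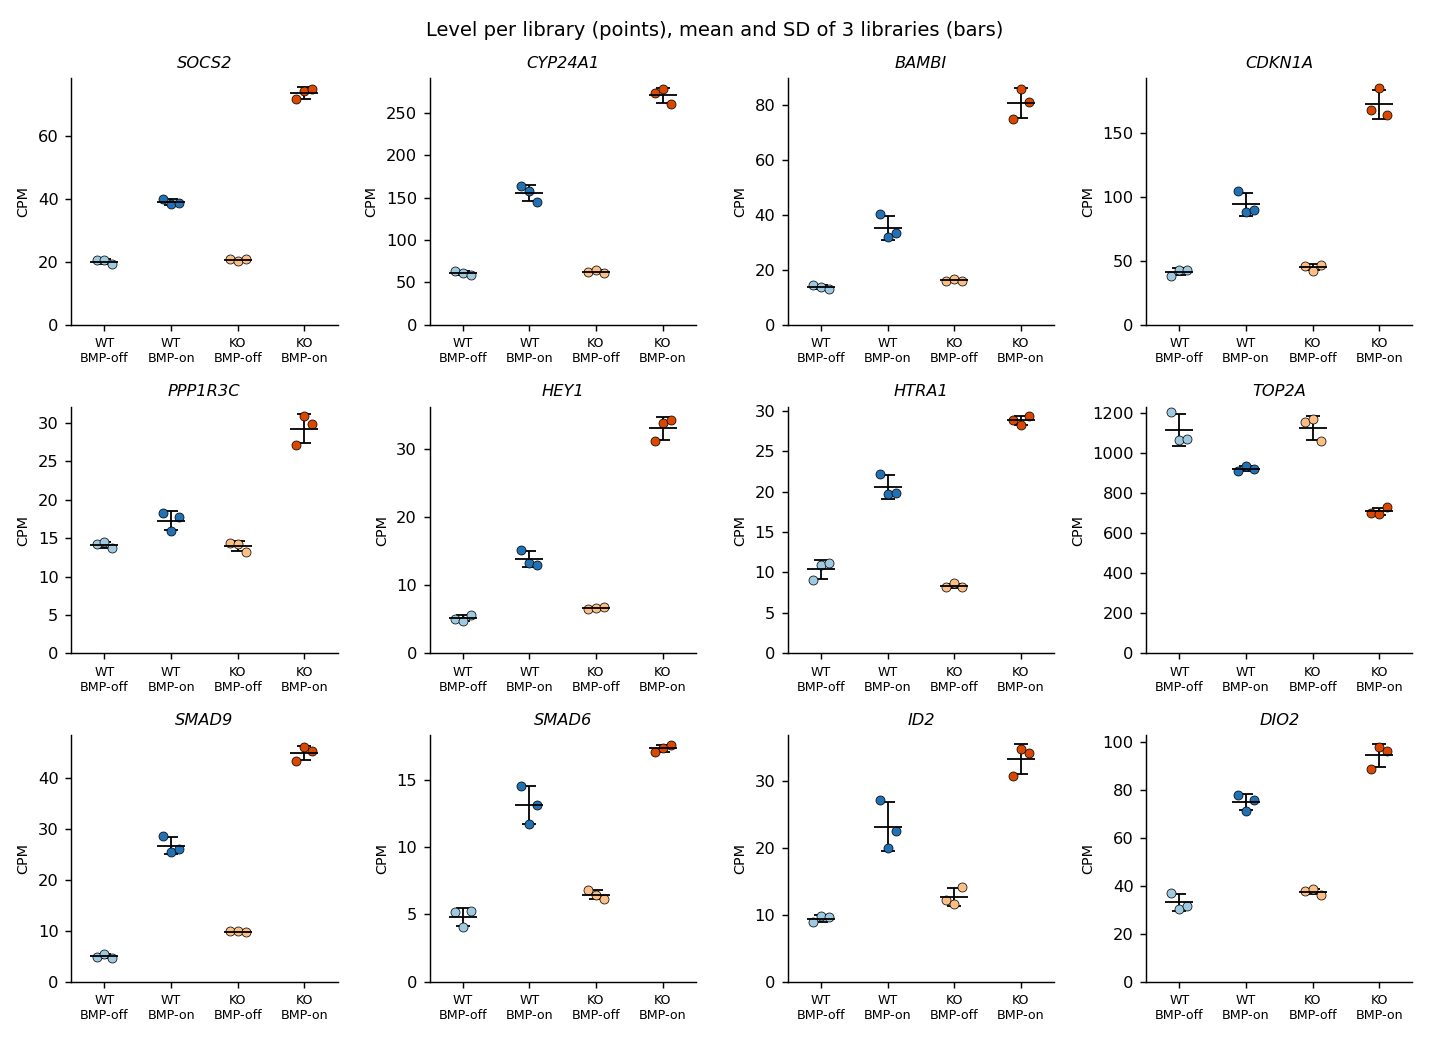
Levels in CPM (vertical axes, from 0) of 12 genes in each library (points) by group, with the mean and SD of 3 libraries (bars). For the first 7 genes WT and KO cells lay closer together with BMP-off than with BMP-on. For *BAMBI*, *HEY1* and *HTRA1* WT and KO cells did not overlap with BMP-off. *TOP2A* was lower in KO BMP-on than in every other group, while *SMAD9*, *SMAD6*, *ID2* and *DIO2* rose by similar folds in WT and KO cells.

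Larger estimates came from genes with larger standard errors, none of which passed the adjusted threshold. Among genes with a mean of at least 50 counts and an unadjusted p under 0.01, the largest was that of *PHOSPHO1*, a phosphatase of bone mineralization, at 1.36 log2 (standard error 0.31, edgeR adjusted p = 0.0897). Its level was 0.719 to 1.26 CPM in WT BMP-off, 2.29 to 2.62 in WT BMP-on, 0.631 to 1.12 in KO BMP-off and 5.44 to 6.45 in KO BMP-on. *NECTIN4*, an adhesion molecule, followed with 1.29 log2 (edgeR adjusted p = 0.293). *RAB26*, a small GTPase of secretory granules, had 1.25 log2 (edgeR adjusted p = 0.14), with a log2 response of -0.45 in WT and 0.80 in KO cells. *DUSP2*, a phosphatase that switches off MAP kinases, had 6.22, 6.52 and 7.73 CPM in WT BMP-off, 29.6, 18.6 and 21.4 in WT BMP-on, 8.62, 5.95 and 9.84 in KO BMP-off and 62.7, 72.0 and 61.0 in KO BMP-on (interaction 1.24 log2, edgeR adjusted p = 0.138). WT BMP-on replicate 1 was the highest of its group for *DUSP2*, as it was for all 7 genes with a higher interaction.

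The inhibitors and feedback genes of the pathway did not move as a block. Of 28 such genes 25 were tested, 15 had a positive and 10 a negative interaction, the median was 0.04, and *BAMBI* was the 1 called. Over all genes tested 52.4% were positive, with a median of 0.01. *NOG*, which encodes the secreted BMP antagonist Noggin, had 2.48, 2.26 and 2.05 CPM in WT BMP-off, 7.09, 5.44 and 6.25 in WT BMP-on, 2.79, 3.13 and 3.03 in KO BMP-off and 13.7, 16.5 and 14.2 in KO BMP-on. The KO libraries lay above the WT libraries in both BMP states. The interaction of 0.85 log2 (standard error 0.19) missed the threshold (edgeR adjusted p = 0.0849), and it also did so with the GC correction described below. With DESeq2 it passed (adjusted p = 0.0357). *SMAD7*, an inhibitory SMAD, had log2 responses of 1.11 and 1.35 (interaction 0.24, 95% interval -0.04 to 0.52). *PMEPA1*, which sequesters receptor-activated SMADs, had 0.38 and 0.61 (interaction 0.23, unadjusted p = 0.0026), and *SMURF2*, a ubiquitin ligase for SMADs and receptors, 0.08 and 0.30 (0.22, unadjusted p = 0.0052).

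*SMAD9* (ENSG00000120693), a SMAD with weak activity that acts in feedback on the pathway, had the largest log2 response in WT cells of the tested genes of this list. It stood at 4.82, 5.52 and 4.73 CPM in WT BMP-off, 28.6, 25.4 and 26.0 in WT BMP-on, 9.94, 9.92 and 9.68 in KO BMP-off and 43.3, 46.0 and 45.3 in KO BMP-on. KO libraries lay above WT libraries in both BMP states. The fold induction was 5.31 in WT and 4.55 in KO cells, an interaction of -0.22 log2 with a 95% interval of -0.46 to 0.01. The BMP-off libraries that enter this difference also gave a log2 difference of 0.97 between KO and WT cells. On the log2(RPKM + 1) scale the interaction had the other sign, at 0.08. *SMAD6* (ENSG00000137834), an inhibitory SMAD, had 5.17, 4.04 and 5.28, 14.6, 11.7 and 13.1, 6.84, 6.47 and 6.14, and 17.1, 17.3 and 17.6 CPM in the same order of groups, which is 2.71-fold in WT and 2.67-fold in KO cells (interaction -0.02 log2, interval -0.34 to 0.31).

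Responses of equal size, defined as a 95% interval of the interaction inside -0.5 to 0.5 log2 (less than 1.41-fold either way), were found for other BMP-responsive genes as well. *ID2* had 8.88, 9.78 and 9.73 CPM in WT BMP-off, 27.2, 19.98 and 22.6 in WT BMP-on, 12.3, 11.6 and 14.2 in KO BMP-off and 30.8, 34.9 and 34.3 in KO BMP-on, so that the KO libraries were higher in both states and the folds were 2.45 and 2.62 (interaction 0.10, interval -0.23 to 0.42). For *ID1* the log2 responses were 0.94 and 1.08 (interaction 0.13, interval -0.19 to 0.46). *ID3*, with responses of 0.61 and 1.03, had an interval of -0.0037 to 0.86 and could not be placed. *DIO2*, the deiodinase that activates thyroid hormone, had responses of 1.18 and 1.33 (interaction 0.15, interval -0.06 to 0.36), and *GATA2-AS1*, a noncoding RNA beside *GATA2*, 1.56 and 1.69 (0.13, interval -0.19 to 0.45). The transcription factor *SOX9* had 0.94 and 1.17 (0.23), the secreted *ADAMTSL3* 0.77 and 0.97 (0.21) and the small GTPase *MRAS* 0.55 and 0.78 (0.22). *SORT1*, a sorting receptor, fell with BMP in both, by 0.59 and 0.74 on the log2 scale (interaction -0.15, interval -0.30 to -0.0046). Over all genes tested, 8940 (52.0%) had such an interval.

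**Figure D2:**
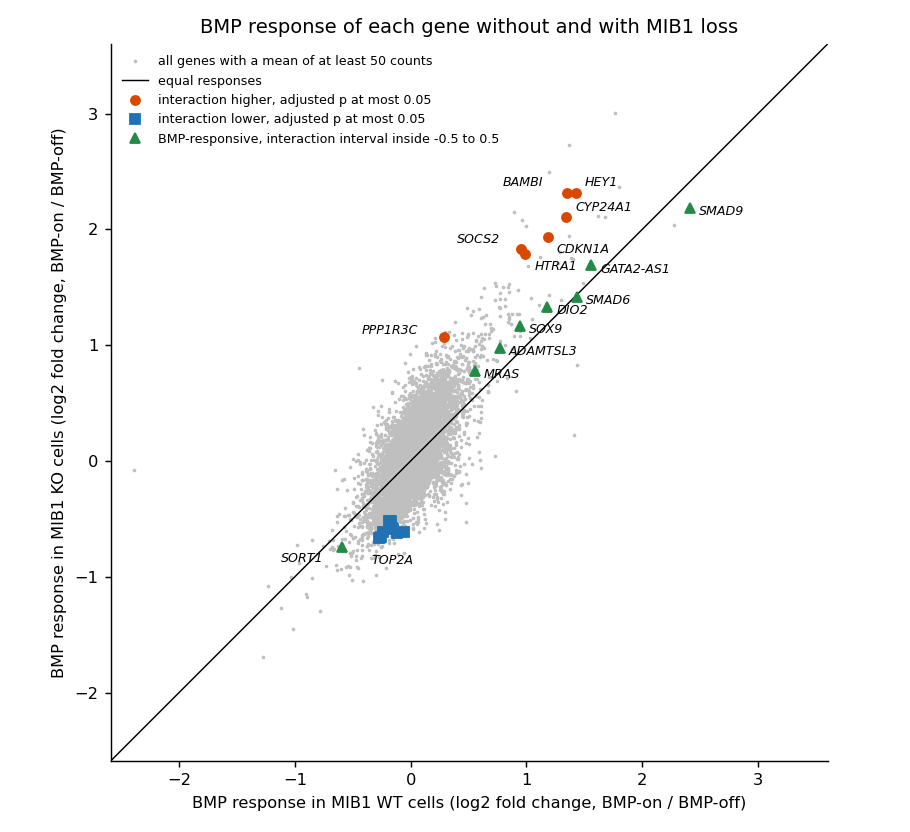
Log2 fold change with BMP in WT cells (horizontal) against that in KO cells (vertical) for 12837 genes with a mean of at least 50 counts (grey), with the 7 genes of higher interaction (circles), the 9 of lower interaction (squares), 8 BMP-responsive genes with an interval inside -0.5 to 0.5 (triangles) and the line of equal responses. The circles lie above the line at a log2 response of 1.07 to 2.31 in KO cells, the squares below it at WT responses of -0.27 to -0.06, and the triangles along it.

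To describe BMP-responsive genes without favouring the WT or the KO response, genes were taken by the mean of both responses, at a size of at least 0.5 log2 and an adjusted p of at most 0.05. There were 542 induced genes, of which 7 had a larger response in KO cells, 0 a smaller one, 46 an equal one in the above sense and 489 could not be placed. Of these 542, 469 had a positive interaction, with a median of 0.41 and median log2 responses of 0.55 in WT and 0.93 in KO cells, whereas 52.4% of all genes tested had a positive interaction, with a median of 0.01. There were 180 repressed genes, of which 0 had a larger or a smaller response in KO cells at the threshold, 30 an equal one and 150 could not be placed. The 9 genes called with a lower interaction are not among the 180, since the mean of both their responses was under 0.5 log2 in size. Of these 180, 137 had a negative interaction (median -0.21). Of the 46 equal induced genes 34 had a positive interaction, and of the 30 equal repressed genes 22 had a negative one. At an unadjusted p under 0.05 (edgeR) were 10 of the 46 and 8 of the 30, so an equal response in this sense does not exclude a small difference. In all, 606 of 722 responsive genes had an interaction in the direction of their BMP response, 220 of them at an unadjusted p under 0.05, against 116 in the opposite direction, 3 of them at that p. The 3, chosen after their values were seen, were an unprocessed pseudogene (ENSG00000269706, log2 responses 1.43 and 0.83), *CHMP4C*, a subunit of the membrane scission machinery (1.29 and 0.36), and *RRAGD*, a GTPase of the lysosomal nutrient sensor (-1.59 and -0.30), with adjusted p values of 0.34 to 0.42 (edgeR).

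At a mean response of at least 1 log2, 134 genes were induced, 106 of them coding and 22 long noncoding, and 116 had a positive interaction, with a median of 0.49. The median level of these 134 genes, as the log2 difference from the WT BMP-off mean, was 1.10, 0.94 and 0.95 in the WT BMP-on libraries and 1.51, 1.57 and 1.54 in the KO BMP-on libraries. With BMP-off it lay between -0.07 and 0.06 in WT and between 0.05 and 0.29 in KO libraries, with replicate 3 the highest. Without KO BMP-off replicate 3 the median interaction was 0.65, and without WT BMP-off replicate 2 it was 0.39. The 29 genes repressed as strongly stood at -1.03, -0.80 and -0.94 in WT BMP-on and at -1.36, -1.54 and -1.26 in KO BMP-on libraries, and 22 of them had a negative interaction (median -0.23). This median moved more with single libraries, to -0.13 without WT BMP-off replicate 1, to -0.10, -0.05 and -0.07 without WT BMP-on replicates 1, 2 and 3, and to -0.36 and -0.43 without KO BMP-on replicates 1 and 3. With BMP-off the repressed set stood at -0.03, 0.04 and 0.08 in WT and at -0.18, -0.30 and -0.05 in KO libraries. For both sets the KO BMP-on libraries were apart from the WT BMP-on libraries, and for the repressed set the KO BMP-off libraries also lay below the WT BMP-off libraries.

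**Figure D3:**
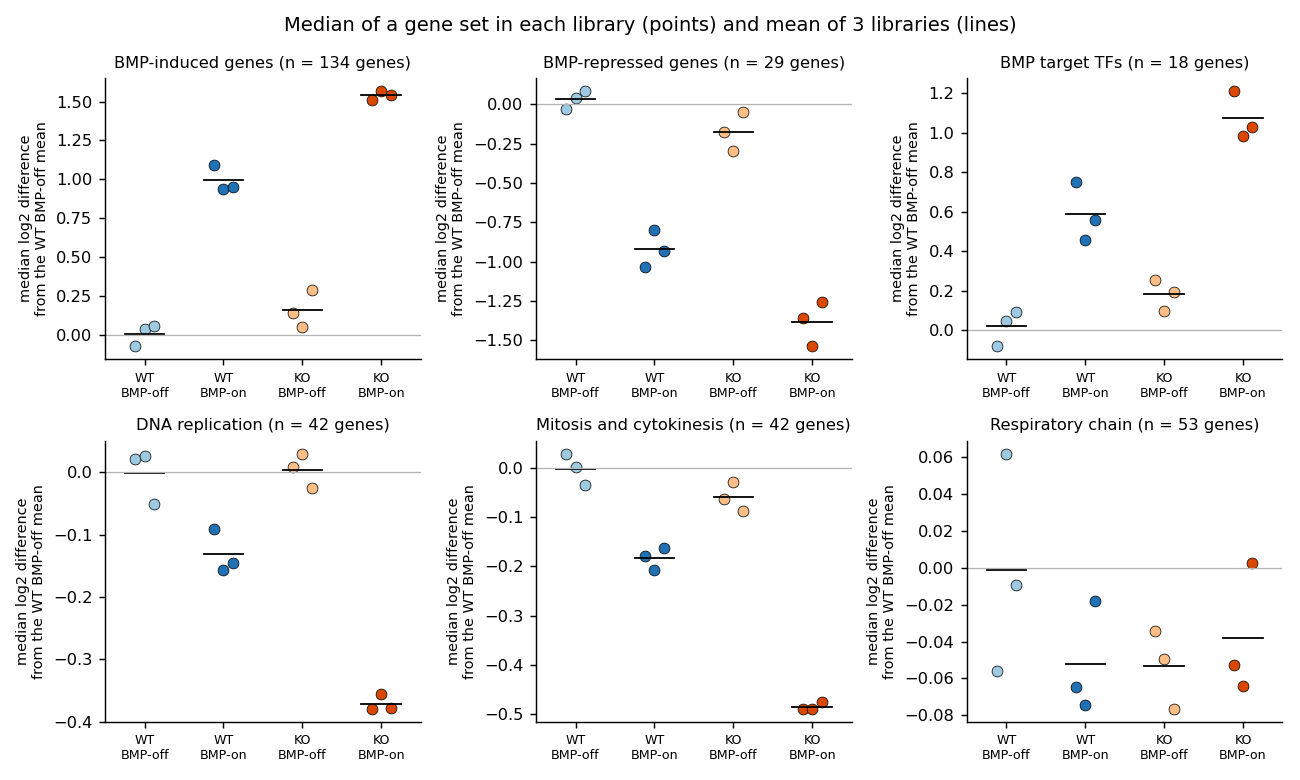
Median over the genes of a set of the log2 difference from the WT BMP-off mean (vertical axes, which differ between panels) in each library (points), with the mean of 3 libraries (lines). KO BMP-on libraries lie farthest from 0 for the BMP-induced, BMP-repressed, DNA replication and mitosis sets, and the respiratory chain genes stay within -0.08 and 0.06 in every library.

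Of 23 BMP target transcription factors 18 were tested and 0 were called. Their median was 0.13, and 13 were positive, or 10 after the GC correction described below. Over all genes tested 52.4% were positive, or 48.7% after that correction. *DLX2*, a homeobox gene of craniofacial and limb development, had log2 responses of 1.80 and 2.37 (interaction 0.56, unadjusted p = 0.0016). *DLX4*, its relative, had 0.26 and 0.86 (0.61, unadjusted p = 0.001), and *MSX2*, a homeobox repressor, 0.94 and 1.27 (0.33, unadjusted p = 0.012). *DLX3* had the largest estimate, 2.37 log2, from a mean of 6.83 counts per library (unadjusted p = 0.02).

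Receptors and signaling SMADs showed about as many positive as negative interactions. Of 18 tested genes 9 were positive, against 52.4% of all genes tested. The median was -0.03 and 0 were called at the adjusted threshold. *TGFBR3*, the co-receptor betaglycan, came closest, with 620.4, 551 and 593 CPM in WT BMP-off, 441, 471 and 446 in WT BMP-on, 580.0, 581 and 564 in KO BMP-off and 352, 337 and 351 in KO BMP-on (interaction -0.35 log2, standard error 0.065, edgeR adjusted p = 0.0515). Its KO BMP-on libraries lay below all others, and it was called with the GC correction described below (-0.30 log2, edgeR adjusted p = 0.0063). *BMPR2*, a type II BMP receptor, had log2 responses of 0.40 and 0.49 (interaction 0.10, unadjusted p = 0.38), and *SMAD1* -0.07 and 0.16 (0.23, unadjusted p = 0.024).

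The 9 genes with a lower interaction were *TOP2A*, *KIF15*, *ARHGAP11A*, *SHCBP1*, *POLQ*, *ZNF367*, *NSD2*, *CDCA7L* and *PM20D2*. Their log2 responses lay between -0.27 and -0.06 in WT cells and between -0.67 and -0.52 in KO cells, with interactions of -0.56 to -0.33. *TOP2A* (ENSG00000131747), the topoisomerase that untangles chromosomes before mitosis, had 1205, 1068 and 1070 CPM in WT BMP-off, 911, 937 and 918 in WT BMP-on, 1153, 1170 and 1059 in KO BMP-off and 701, 695 and 731 in KO BMP-on. The BMP-off groups overlapped and the KO BMP-on libraries were the lowest, and BMP left 0.828 times the level in WT and 0.629 times in KO cells (interaction -0.40 log2, standard error 0.072, edgeR adjusted p = 0.0484). *POLQ* (ENSG00000051341), a DNA polymerase of end joining, had 83.4, 69.6 and 70.8, 72.6, 72.0 and 70.6, 84.8, 88.4 and 78.7, and 51.4, 57.1 and 56.3 CPM in the same order. WT cells overlapped between BMP-off and BMP-on, KO cells did not, and the interaction of -0.56 was the most negative of the 9 (standard error 0.097, edgeR adjusted p = 0.0413).

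*ZNF367*, a zinc finger factor, went from 39.2, 37.6 and 38.3 to 35.2, 37.2 and 33.7 CPM in WT cells and from 42.2, 41.4 and 38.4 to 26.4, 26.0 and 26.9 in KO cells (interaction -0.50, edgeR adjusted p = 0.0305). *KIF15*, a spindle motor, went from 93.4, 90.5 and 86.7 to 80.6, 79.5 and 82.5 CPM in WT cells and from 91.9, 96.2 and 90.3 to 60.5, 60.5 and 65.0 in KO cells (-0.42, edgeR adjusted p = 0.0305). In both genes the 3 KO BMP-on libraries lay below all others. The other members were *ARHGAP11A*, a RhoA regulator of cytokinesis (-0.43), *NSD2*, a histone H3 lysine methyltransferase (-0.35), *SHCBP1*, a protein of the midbody (-0.33), *CDCA7L*, a relative of the MYC target *CDCA7* (-0.38), and *PM20D2* (-0.40). These calls were less secure than the 7 higher ones, since all 9 were lost in 9 of the 12 fits with a library left out, although the sign was negative in each. All 9 were called in the fits without WT BMP-off replicate 1 and without KO BMP-off replicate 3, where the numbers of genes with a lower interaction were 192 and 134. Without KO BMP-off replicate 2 there were 6 genes with a lower interaction. There *ARHGAP11A* was called (edgeR adjusted p = 0.034) and *CDCA7L* was not (edgeR adjusted p = 0.068).

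Lists of cell cycle genes showed the same direction almost throughout, mostly below the threshold for single genes. Of 42 DNA replication genes, all tested, 40 had a negative interaction, 30 of them at an unadjusted p under 0.05, and 0 were called. The median was -0.24, with median log2 responses of -0.14 in WT and -0.39 in KO cells. Of 42 genes of the mitotic spindle and cytokinesis, all 42 were negative, 32 at that p, and *TOP2A* was the 1 called, with a median of -0.24 and responses of -0.19 and -0.43. Over all genes tested 47.6% were negative. The median over the replication list in single libraries was -0.09, -0.16 and -0.15 log2 in WT BMP-on and -0.38, -0.36 and -0.38 in KO BMP-on, and between -0.05 and 0.03 in the 6 BMP-off libraries, so the groups with BMP-on did not overlap. With each library left out, the median interaction stayed between -0.28 and -0.23 for both lists. The numbers of called genes of the replication and mitosis lists were 9 and 15 without WT BMP-off replicate 1 and 13 and 15 without KO BMP-off replicate 3. The lists were compiled with earlier results of these data known, so these counts are no independent evidence of a direction.

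Named members of these lists had similar values. *MCM10*, a replication initiation factor, had 189, 181 and 173 CPM in WT BMP-off, 169, 162 and 166 in WT BMP-on, 193, 201 and 181 in KO BMP-off and 131, 145 and 131 in KO BMP-on (interaction -0.37, unadjusted p = 0.00015, edgeR adjusted p = 0.0722). *DUT* (dUTPase), *RRM1* (the large subunit of ribonucleotide reductase) and *GINS1* (part of the replicative helicase) had interactions of -0.38, -0.30 and -0.31. For *TPX2*, *MAD2L1* and *ANLN*, which act in spindle assembly, the spindle checkpoint and cytokinesis, they were -0.30, -0.34 and -0.39. Members with a high p as counted were *CDT1* (-0.11, unadjusted p = 0.68) and *POLD1* (0.06, 0.82) in replication and *PLK1* (-0.08, 0.37) and *INCENP* (-0.09, 0.57) in mitosis. With the GC correction described below they stood at -0.37, -0.19, -0.21 and -0.25, so that *POLD1* turned sign, and *PLK1* was called (edgeR adjusted p = 0.022). Of 23 tested cyclin, E2F and RB family genes 16 were negative (median -0.17), among them the repressors *E2F8* (-0.46) and *E2F7* (-0.55), the S and G2 phase cyclin *CCNA2* (-0.30) and the pocket protein *RBL1* (-0.42), while *CCND1* had the same log2 response of 0.26 in both. *FAM111B*, a protease on none of these lists, had an interaction of -0.68 (edgeR adjusted p = 0.0722), with log2 responses of -0.30 and -0.98.

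Other groups showed smaller or mixed differences. Of 53 nuclear-encoded respiratory chain genes 44, of 66 cytosolic ribosomal protein genes 44 and of 31 cholesterol and fatty acid genes 28 had a positive interaction, with medians of 0.07, 0.07 and 0.10 and 0 called in each. Over all genes tested 52.4% were positive. With the GC correction described below the numbers were 46, 41 and 21, against 48.7% of all genes. In that fit 2 of the cholesterol and fatty acid genes were called. *TM7SF2*, a sterol reductase, had log2 responses of 0.18 and 1.02 (interaction 0.83, unadjusted p = 0.0029). Immediate early genes were positive in 17 of 25 (median 0.07), with *GADD45B*, a stress-induced growth regulator, at 0.74 and 1.51 (0.77, unadjusted p = 0.0011) and *KLF6*, a zinc finger factor, at -0.32 and -0.54 (-0.22, unadjusted p = 0.0087). Of 21 MAP kinase feedback genes 10 were positive (median -0.01), with *DUSP1*, a MAP kinase phosphatase, at 0.42 and 0.76 (0.34, unadjusted p = 0.00026). Of 30 cytokine receptor and SOCS genes 13 were positive (median -0.03), *SOCS2* was called, and *IL6R*, a subunit of the interleukin-6 receptor, had -0.32 and -0.72 (-0.40, unadjusted p = 0.0012).

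Among Wnt genes 15 of 25 were positive (median 0.18), among them the ligand *WNT7B* with log2 responses of 0.63 and 1.496 (interaction 0.87, unadjusted p = 0.00022). Of 31 SMAD3 and YAP targets 16 were positive (median 0.03), and *THBS1*, an extracellular glycoprotein, had -0.46 and -0.92 (-0.46, unadjusted p = 0.0017). Epithelial junction and keratin genes were positive in 13 of 25 (median 0.04), with *CLDN4*, a tight junction protein, at 0.56 and 1.55 (0.99, unadjusted p = 0.0066). Chemokines and cytokines were positive in 11 of 24 (median -0.01), with *IL6*, an inflammatory cytokine, at -1.28 and -1.697 (-0.42, unadjusted p = 0.018). Interferon-stimulated genes were positive in 16 of 26 (median 0.13), TGF-β family ligands in 11 of 15 (0.16) and integrated stress response genes in 17 of 28 (0.04). In each of these lists 0 genes were called, and over all genes tested 52.4% had a positive interaction.

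**Figure D4:**
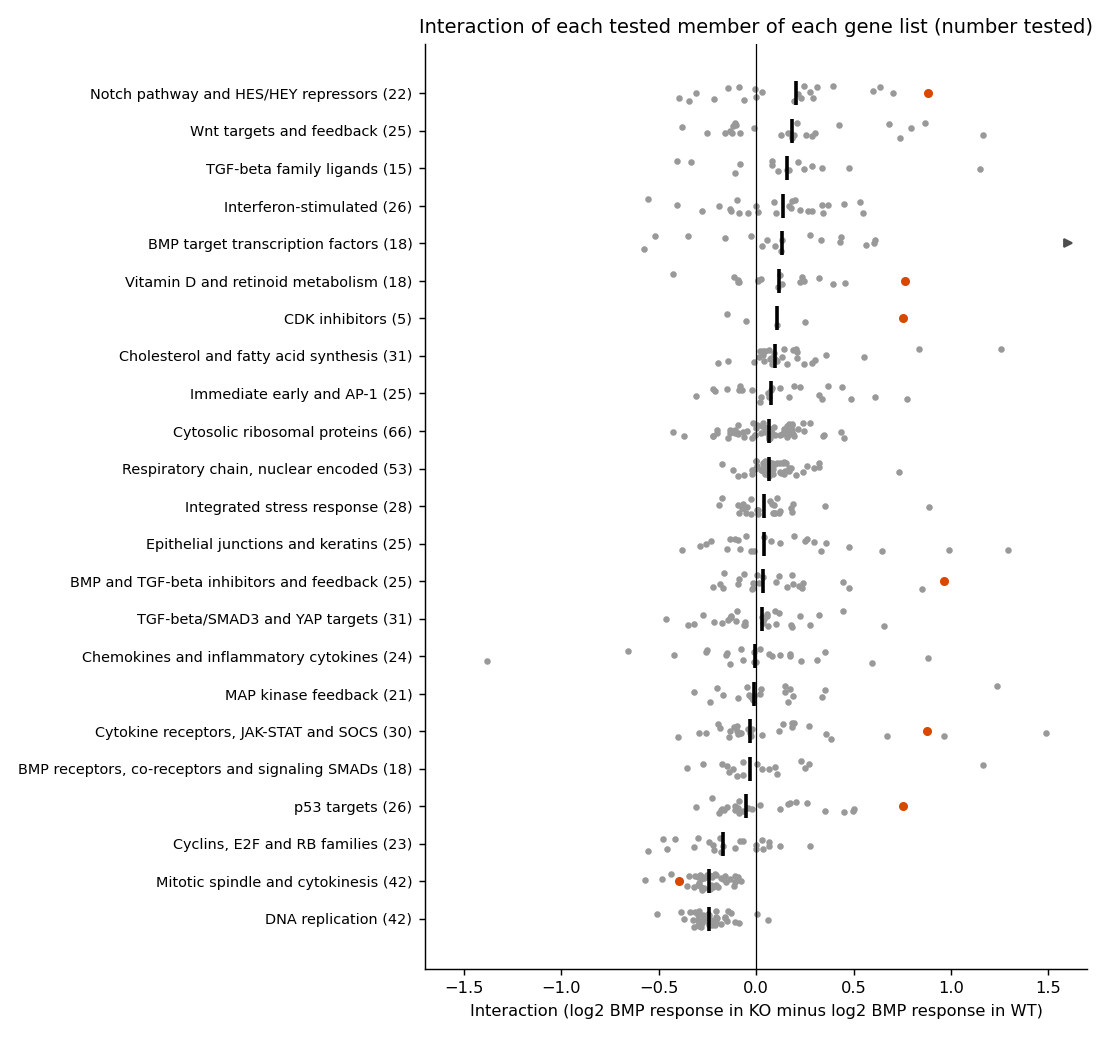
Interaction in log2 (horizontal) of every tested member of each of 23 gene lists (grey points, 1 beyond the axis drawn as an arrow at 1.6), with genes at an adjusted p of at most 0.05 in orange and the median as a bar; the number in brackets is that of genes tested. The replication and mitosis lists lie almost wholly below 0, and the other lists spread to both sides.

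The interaction also ran with the GC content of transcripts, as did single libraries. Across genes, Spearman's rho between the interaction and transcript GC content was 0.41 over 17090 genes, which are not independent replicates and share the libraries. Over 10 bins of genes of nearly equal size, from the bin of lowest GC content (median 36.9%) to that of highest (63.5%), the median interaction went from -0.09 to 0.25. Within groups, the rho of a library's deviation from its group mean with GC content was -0.598 in KO BMP-off replicate 2, 0.582 in KO BMP-off replicate 3 and -0.422 in WT BMP-off replicate 1. The 7 genes with a higher interaction had 42.0 to 58.1% GC and the 9 with a lower one 38.9 to 45.8%, against a median of 47.8% for all genes, and the 134 BMP-induced genes had a median of 55.8%.

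With a loess trend on GC content taken out of each library, 64 genes (0.372%) had a higher and 188 (1.09%) a lower interaction at the threshold, and all 16 genes above were among them. The trend was fitted to each library's deviation from the mean of all libraries. Any part of the BMP responses that ran with GC content was therefore taken out too. The values were 0.89 log2 for *SOCS2*, 0.79 for *CYP24A1*, 0.94 for *BAMBI*, 0.91 for *HEY1*, 0.83 for *PPP1R3C*, 0.64 for *HTRA1* and 0.59 for *CDKN1A*. Of the 84 replication and mitosis genes 43 were then called, all of them lower, with medians of -0.26 and -0.22. The medians of the BMP target transcription factors and of the Notch genes were 0.07 and -0.02 after the correction, against 0.13 and 0.20 before it. The medians of the inhibitor, stress response, SMAD3 and YAP, epithelial and CDK inhibitor lists were -0.01, -0.01, -0.05, -0.02 and -0.0032 after it and that of the receptors and signaling SMADs was 0.02, each the other sign from before. Of 106 genes induced at least 2-fold on average after the correction, 85 had a positive interaction (median 0.37), and of 36 repressed as strongly 29 had a negative one (median -0.25). Among genes with a mean response of at least 0.5 log2, the response was larger in KO cells for 29 of 372 induced and 13 of 239 repressed genes, equal for 55 and 43, and smaller for 0 of either. Genes that joined the higher group, named after their values were seen, included *KDM7A*, a histone demethylase (0.78), *NEBL*, an actin-binding protein (0.56), and *S100P*, a calcium-binding protein (0.53). Of genes given above as not called, *TM7SF2* (0.56), *DUSP1* (0.24), *SMURF2* (0.27), *RAB26* (1.03) and *SOCS2-AS1* (1.13) joined it too. Those that joined the lower group included *TGFBR3* (-0.30), *IL6R* (-0.43), *MCM10* (-0.33) and *FAM111B* (-0.60). *DUSP2* (0.98, edgeR adjusted p = 0.206), *NOG*, *PHOSPHO1* and *NECTIN4* still missed the threshold.

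**Figure D5:**
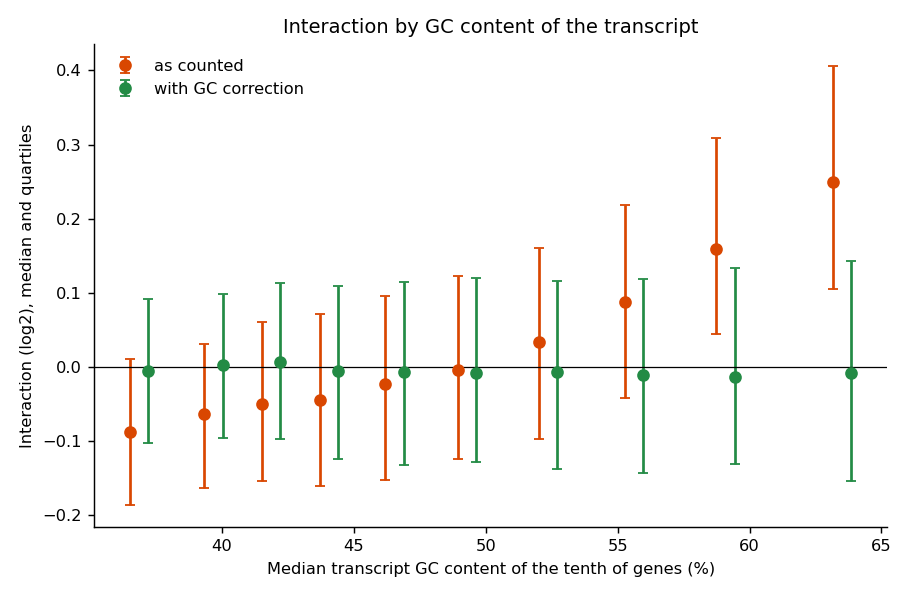
Median interaction in log2 with quartiles (vertical) for 10 bins of genes ordered by the GC content of the transcript (horizontal, %), as counted and after the GC correction. The medians rise from -0.09 to 0.25 as counted and lie between -0.013 and 0.0066 after it, where the correction makes them flat by the way it is built.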

How the data were processed

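RNA-seq counts of 12 libraries (4 groups of 3) were used. After discarding reads of ribosomal RNA, the authors used GSNAP for alignment (genome GRCh38) and HTSeqGenie for counting over exons of RefSeq genes, and the deposited counts are raw counts per Ensembl gene ID. The deposited RPKM values, which the authors scaled by length and depth, served for alternatives only, on log2(RPKM + 1) and log2(RPKM + 0.1). How RefSeq genes were matched to the Ensembl IDs, the library kit of each sample and the use of strand are not given in the sources used here. Groups came from the sample titles, and 0 columns of per-sample values were left out.

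Of 58302 IDs, 17188 passed edgeR's filterByExpr. A model with 1 mean per group was fitted with TMM scaling and robust quasi-likelihood tests (edgeR 4.0.16, limma 3.58.1, R 4.3.3; DESeq2 1.42.0 as an alternative), with Benjamini-Hochberg adjustment over all genes tested. The scripts were tested on simulated data with known changes. These changes were larger than the interactions called here, with a constant dispersion and no GC trend. The test therefore does not show how well changes of the size called here are found. Alternatives covered other scalings and filters, limma-voom, a replicate block, each library left out, and a loess fit of log2 counts on transcript GC content (span 0.4, 17090 genes with a value). Total counts of 19124010 to 29498000 set the precision of low genes.

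The genes named were all those past the adjusted threshold, BMP-responsive genes with an equal response, *MIB1* and genes that the authors name for this experiment. Those of largest interaction among genes with a mean of at least 50 counts and an unadjusted p under 0.01 were named too. From each list came members with the lowest unadjusted interaction p and with the largest mean BMP response. In the replication and mitosis lists, members with a high p were named as well. Members and lists were chosen with earlier results of these data known. Same-numbered replicates of different groups did not deviate together (1 of 18 pairs had a correlation of deviations above 0.1), so numbers were not taken as pairs.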

Additional observations from a re-analysis of the deposited data

Results flagged for a closer look

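The 16 genes listed here had BMP responses that differed between MIB1 WT and KO cells by the test of the difference itself (edgeR, adjusted p of at most 0.05). Log2 interactions were positive for *SOCS2* (0.88), *CYP24A1* (0.77), *BAMBI* (0.96), *CDKN1A* (0.75), *PPP1R3C* (0.78), *HEY1* (0.88) and *HTRA1* (0.80). They were negative for *ZNF367* (-0.50), *KIF15* (-0.42), *ARHGAP11A* (-0.43), *NSD2* (-0.35), *SHCBP1* (-0.33), *POLQ* (-0.56), *CDCA7L* (-0.38), *PM20D2* (-0.40) and *TOP2A* (-0.40).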

How the results depend on the processing

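The number of genes with an adjusted interaction was 16 in the analysis reported and varied widely. It was 123 with DESeq2, 10 with library-size scaling, 318 without a filter on low counts, 4 on log2(RPKM + 1), 3 on log2(RPKM + 0.1), 3 with a replicate block, 252 with GC correction and 199 with GC correction and the block. With a log2 size of at least 1 it was 3 with DESeq2, 15 without a filter, 6 with GC correction and 2 with GC correction and the block, against 0. Genes of larger response numbered 7, and 32, 64, 4, 3, 3, 42 and 35 with DESeq2, no filter, log2(RPKM + 1), log2(RPKM + 0.1), the block, GC correction and GC correction with the block. The median of 2-fold induced genes was 0.37 with GC correction, with and without the block, and that of repressed genes -0.36 and -0.38 on the log2(RPKM + 1) and log2(RPKM + 0.1) scales. On these scales the repressed set held 2 and 35 genes, against 29 in the analysis reported. Replicate numbers are not known to pair samples, so calls lost under the block are not read as weaker effects.

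With 1 library left out, the count ran from 4 to 236 (236 without WT BMP-off replicate 1, 220 without KO BMP-off replicate 3), that with a log2 size of at least 1 from 0 to 8, larger responses from 4 to 58, smaller ones from 0 to 1 and equal ones from 61 to 87. Medians ran from 0.39 to 0.65 for induced and from -0.43 to -0.051 for repressed genes. Signs turned for *ID1* with GC correction (-0.032, with the block -0.031), *ID2* without 1 library, WT BMP-on replicate 2 (-0.0076, range -0.0076 to 0.215), *SMAD6* on log2(RPKM + 1) (0.052) and with a library left out (-0.102 to 0.0887), and *SMAD9* on log2(RPKM + 1) (0.0811), where the cause was not tested. Low counts give wide intervals, as for *DLX3* (mean of 6.83 counts, 95% interval 0.36 to 4.38).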

Other observations

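A pair of processed pseudogenes stood out in single libraries. *RPS2P46* had 42.0 CPM in WT BMP-off replicate 3 and 2.06 to 3.18 CPM in the other 11 libraries, and *GAPDHP40* had 65.7 CPM in WT BMP-on replicate 3 and 7.43 to 12.9 CPM in the others. Of 12837 genes with a mean of at least 50 counts, only these 2 were at least 3 times higher in 1 library than in the next. Neither was called for the interaction (edgeR adjusted p = 0.632 and 0.687).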
